A study of Gallus gallus with 6 samples.

Results

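A set of 10 genes of the FGF and MAP kinase feedback circuit was examined in the chick basilar papilla (BP), the hearing organ of birds, after loss of hair cells (HCs). They were the Sprouty family genes SPRY1, SPRY2, SPRED1 and SPRED2, the MAP kinase phosphatases DUSP4, DUSP5 and DUSP6, the transcription factors ETV4 and ETV5, and the FGF carrier gene FGFBP1. All probe sets, groups of short probes for 1 transcript, that the platform's annotation gives to one of these 10 symbols were taken, which were 21 of the 38382 probe sets and 10 of the 13009 genes analysed. A further 2 probe sets carry the symbol of SPRED2 together with that of TNRC6A and were left out.

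Fibroblast growth factors bind receptor tyrosine kinases at the cell surface, and the signal passes through RAS and RAF to the MAP kinase ERK. Active ERK induces its own inhibitors, so that levels of their transcripts are commonly read as a measure of pathway activity. Sprouty and SPRED proteins act on the receptor and RAS steps, DUSP phosphatases remove phosphate from MAP kinases, and ETV4 and ETV5 are ETS transcription factors that carry the signal into the nucleus. FGF signaling induces the otic placode and later patterns the supporting cells (SCs) of the hearing organ.

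The RNA came from the dissected base of the BP of wild type chicks aged 12-16 days, pooled over several birds, and was hybridized to the Affymetrix GeneChip Chicken Genome Array. There were 2 arrays each from age-matched untreated controls, from chicks at 48 hrs after gentamicin, an ototoxic aminoglycoside that destroys HCs in the base, and from chicks at 72 hrs. The study asked which pathways are active while HCs regenerate. The arrays of a group are named biological replicates 1 and 2, and each is a pool, so that no value belongs to 1 bird. Where a gene has several probe sets, its values are those of the brightest one, with the highest mean log2 intensity, unless stated otherwise.

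Array medians ranged from 4.73 to 4.92 in log2 intensity, and 51.7% to 54.4% of the values on each array fell under an intensity of 32. The brightest SC markers were GJB6, between 13.45 and 13.58, and TECTB, between 13.11 and 13.39 in log2 intensity. The dimmest of 10 measured, OTOG, had a mean of 5.01, near the median of all values, 4.81. HES5 had log2 fold changes of -1.58 at 48 hrs and -0.92 at 72 hrs, and the median over the 10 was -0.18 and -0.02. Of the HC markers, MYO6 lay between 9.03 and 9.61 and ATOH1, under the median, between 2.70 and 3.69. CHRNA9, the HC acetylcholine receptor subunit, read 7.81 and 7.48 in controls, 6.66 and 6.66 at 48 hrs and 6.05 and 6.70 at 72 hrs, below both controls at each time (limma adjusted p = 1 and 0.878). Both treated arrays lay below both controls for 13.4% and 12.9% of genes. CALB2, on the same marker list, went the other way, with log2 fold changes of 4.55 and 3.50 (limma adjusted p = 0.401 and 0.176), and TMC1 had -1.10 and 0.08. The median over 13 measured HC markers was 0.06 at 48 hrs and 0.17 at 72 hrs. The intensity of 10 connective tissue markers summed to 3078 on control array 1 and to between 616 and 896 on the other 5 arrays. COL1A1, DCN and LUM, and the dim TWIST1 and TWIST2, were highest on control array 1. POSTN and THBS2 were lowest there, and COL1A2, COL3A1 and PRRX1 were neither. On the first principal component the replicate 1 arrays stood at 19.5 in controls, 17.9 at 48 hrs and 14.1 at 72 hrs. The replicate 2 arrays stood at -0.49, -9.63 and -41.4, so this component separated the arrays by replicate number, with the 72 hr replicate 2 array farthest out. HINTW, a gene of the female W chromosome, was between 10.79 and 11.60 on the control and 48 hr arrays and was 3.93 and 3.72 at 72 hrs. A difference in sex between the 72 hr pools and the others therefore cannot be told apart from the time after gentamicin, although 0 of the 10 genes are placed on the Z or W chromosome in the assembly GRCg7b. Because the tissue was measured in bulk, fewer cells of a type and less RNA per cell cannot be told apart.

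No probe set of the 10 genes passed limma at 48 or 72 hrs with Benjamini-Hochberg adjustment over all 38382 probe sets. Among all probe sets 0% passed at 48 hrs and 0.0886% passed at 72 hrs, so that the members' count of 0 is near this background at each time. At an unadjusted p under 0.05, 2 of the 21 member probe sets passed at 48 hrs and 0 passed at 72 hrs, against 2.71% and 3.65% of all probe sets. The fold rule of the study's methods takes group means alone and asks for a log2 difference beyond 0.6 or -0.6, with no test. By that rule 4 member probe sets were above control and 3 below it at 48 hrs, where 10.9% and 8.75% of all probe sets were. At 72 hrs 2 were above and 2 were below, where 14% and 9.16% of all probe sets were. Both arrays lay above both controls for 6 of the 21 at 48 hrs (background 16%) and below them for 4 (background 13.5%), and at 72 hrs for 4 (background 17.2%) and 1 (background 12.2%).

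On the brightest probe sets, 3 of 10 members passed the fold rule upward at 48 hrs (background 6.82%) and 0 passed downward (background 5.29%). These were FGFBP1, SPRED2 and DUSP5. At 72 hrs 0 passed in either direction, against backgrounds of 9.28% upward and 6.26% downward. Both treated arrays lay above both controls for 5 members at 48 hrs (background 15.7%) and for 2 at 72 hrs (background 15.9%), and below them for 0 at each time (backgrounds 13.4% and 12.9%). By their brightest probe sets all 10 members had a log2 fold change above 0 at 48 hrs, with a median of 0.30, whereas 52% of 13009 genes were above 0 and their median was 0.01. At 72 hrs 9 of 10 were above 0, with a median of 0.31, whereas 51.7% of genes were above 0 with a median of 0.01. Over all 21 probe sets 14 were above 0 at 48 hrs and 16 at 72 hrs, with medians of 0.16 and 0.18. With each gene as the mean of its probe sets, 7 of 10 members were above 0 at 48 hrs, DUSP4 (-0.31), DUSP5 (-0.73) and ETV5 (-0.06) being below, and 6 of 10 at 72 hrs, with medians of 0.15 and 0.23. The 2 times share their controls, so that they are not separate observations, and neither are the members, which come from the same pools. The members were chosen with earlier results of these data known. Their counts above 0 are therefore a description and not a test of direction. Without control replicate 1 there were 8 members above 0 at 48 hrs, and without control replicate 2 there were 7 at 72 hrs.

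**Figure D1:**
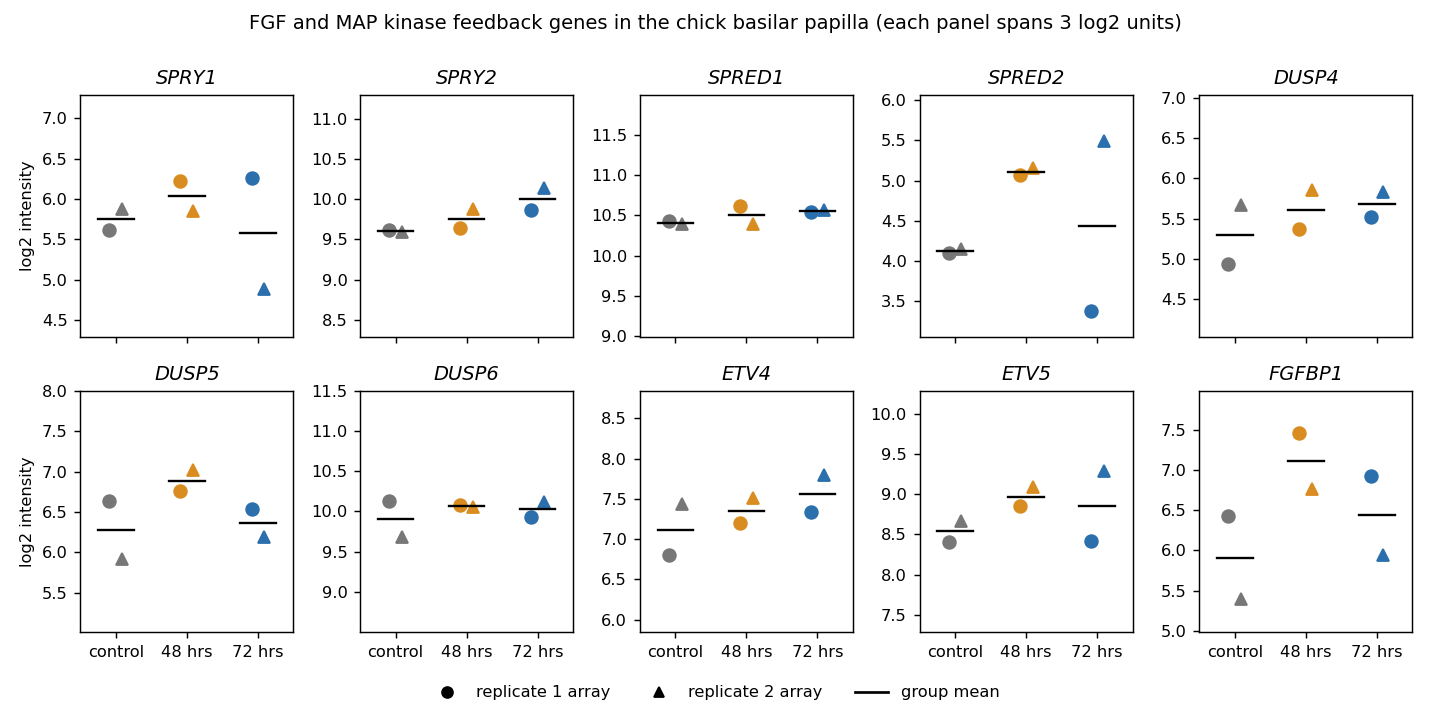
Log2 intensity of the brightest probe set of each of the 10 genes on the control, 48 hr and 72 hr arrays. Circles are replicate 1 arrays, triangles are replicate 2 arrays and bars are group means; every panel spans the same range on the log2 scale. FGFBP1 at 48 hrs (7.45 and 6.76) lies above both controls (6.42 and 5.40), while the arrays of SPRED1 lie between 10.39 and 10.62.

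SPRY2, an inhibitor of receptor tyrosine kinase signaling that FGF induces, was bright and differed little between arrays. It read 9.61 and 9.59 in controls, 9.64 and 9.88 at 48 hrs and 9.87 and 10.14 at 72 hrs. At each time the arrays lay above both controls, by a small amount. The difference from control was 0.15 on the log2 scale at 48 hrs (limma standard error, SE, 0.19, adjusted p = 1) and 0.40 at 72 hrs (SE 0.19, limma adjusted p = 0.996). The 95% interval of the 72 hr value, from limma and not adjusted for the number of probe sets, ran from -0.05 to 0.85, or from 0.965-fold to 1.80-fold.

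SPRED1, which holds RAS inactive through neurofibromin, varied least among the arrays. Its brightest probe set gave 10.42 and 10.39 in controls, 10.62 and 10.40 at 48 hrs and 10.55 and 10.56 at 72 hrs. The log2 fold change was 0.10 at 48 hrs, with an interval from -0.29 to 0.49, and 0.15 at 72 hrs, with an interval from -0.25 to 0.54. For this probe set a change over 1.45-fold in either direction lies outside both intervals, which are not adjusted for the number of probe sets. A dimmer probe set of SPRED1, also over the median, had the opposite sign, -0.18 at 48 hrs and -0.20 at 72 hrs, with SEs of 0.33. Its intervals reached changes of 1.94-fold at 48 hrs and 1.96-fold at 72 hrs, so the bound does not hold for every probe set of the gene. The third SPRED1 probe set, under 32 on all arrays, had 0.50 and -0.17 (SE 0.80 each).

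SPRY1 was dimmer, and its 72 hr arrays disagreed. It had 5.62 and 5.88 in controls, 6.22 and 5.85 at 48 hrs and 6.26 and 4.88 at 72 hrs. The groups overlapped at each time, with log2 fold changes of 0.29 and -0.17 (SE 0.47 each, limma adjusted p = 1 for both). Without the 72 hr replicate 2 array the 72 hr value was 0.51, the opposite sign.

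SPRED2, a relative of SPRED1, was the 1 member whose brightest probe set was dimmer than the median of all values, 4.81. Its brightest probe set had 4.10 and 4.16 in controls, 5.07 and 5.15 at 48 hrs and 3.39 and 5.49 at 72 hrs. At 48 hrs both arrays lay above both controls, as for 16% of all probe sets, with a log2 fold change of 0.98 (SE 0.65, limma adjusted p = 1). The 72 hr arrays fell on opposite sides of the controls, and the fold change of 0.31 became -0.74 without the 72 hr replicate 2 array. The other SPRED2 probe set, under 32 on all arrays, had log2 fold changes of 0.78 and 1.60 at the 2 times. With a floor of 32 the brightest SPRED2 probe set did not pass the fold rule at 48 hrs, since its controls and 1 of its 72 hr arrays lie under that floor.

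DUSP6, the cytoplasmic phosphatase specific for ERK and a common readout of FGF signaling, did not differ beyond the spread of its controls. Its log2 intensity was 10.13 and 9.68 in controls, 10.08 and 10.05 at 48 hrs and 9.93 and 10.12 at 72 hrs. The treated arrays all fell between the 2 controls. The log2 fold change was 0.16 at 48 hrs (interval from -0.33 to 0.64) and 0.12 at 72 hrs (interval from -0.37 to 0.60). In fold units the intervals ran from 0.797 to 1.56 at 48 hrs and from 0.775 to 1.51 at 72 hrs, so a larger rise of DUSP6 in the whole basal BP lies outside them. The sign turned without control replicate 2, with values of -0.07 and -0.11.

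DUSP5, a nuclear phosphatase for ERK, was just past the fold rule at 48 hrs. With equal array medians its log2 fold change was 0.58, which does not pass the rule. Its brightest probe set gave 6.64 and 5.91 in controls, 6.75 and 7.02 at 48 hrs and 6.54 and 6.19 at 72 hrs. The 48 hr arrays lay above both the control and the 72 hr arrays. The log2 fold change of 0.61 at 48 hrs (SE 0.33, limma adjusted p = 1) was 0.25 without control replicate 2 and 0.97 without control replicate 1. At 72 hrs it was 0.09 (SE 0.33). The second DUSP5 probe set went the other way, with 3.66 and 3.68 in controls, 0.69 and 2.49 at 48 hrs and 2.08 and 3.28 at 72 hrs, all under 32. Its log2 fold change at 48 hrs was -2.08 (unadjusted p = 0.027 and adjusted p = 1 from limma), so that the 2 probe sets of this gene disagree in direction.

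DUSP4, a nuclear phosphatase for ERK and other MAP kinases, was dim, and 1 of its 3 probe sets was over the median. The brightest had 4.94 and 5.67 in controls, 5.37 and 5.86 at 48 hrs and 5.52 and 5.83 at 72 hrs, with overlap at each time. Its log2 fold changes were 0.31 and 0.37 (SE 0.38 each). Another DUSP4 probe set had -1.36 and -1.20 (SE 1.37 each), from arrays that ranged from 0.64 to 5.44. The remaining one, under 32 on all arrays, had 0.12 and 0.04 (SE 0.39 each).

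ETV4 and ETV5 belong to the PEA3 group of ETS factors and are transcribed in response to FGF in many embryonic tissues. ETV4 had 6.80 and 7.44 in controls, 7.20 and 7.51 at 48 hrs and 7.33 and 7.79 at 72 hrs. Each group overlapped the controls. Each treated array was above the control array of its own number, but arrays of the same number are not known to be pairs. The log2 fold change was 0.24 at 48 hrs and 0.44 at 72 hrs (SE 0.31 each), with an upper bound of the interval of 1.17 at 72 hrs. The second ETV4 probe set had -0.09 and 0.24 (SE 0.33 each).

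ETV5 is represented by 5 probe sets, of which 2 were designed on the same transcript sequence. Its brightest probe set gave 8.41 and 8.67 in controls, 8.85 and 9.09 at 48 hrs and 8.41 and 9.29 at 72 hrs. The 48 hr arrays lay above both controls and the 72 hr arrays did not, with log2 fold changes of 0.43 and 0.31 (SE 0.30 each, limma adjusted p = 1 and 0.996). Without the 72 hr replicate 2 array the 72 hr value was -0.13. Across the 5 probe sets the 48 hr value ranged from -0.67 to 0.43, with 2 above 0, and the 72 hr value from 0.12 to 1.01, with 5 above 0. The value of 1.01 came from a probe set that read 7.80 on the 72 hr replicate 2 array and between 4.27 and 5.42 on the other 5 arrays.

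FGFBP1 encodes a secreted protein that in mammals releases FGFs from heparan sulfate, and it is not itself an inhibitor. It had the highest log2 fold change of the 10 genes at each time. Its log2 intensity was 6.42 and 5.40 in controls, 7.45 and 6.76 at 48 hrs and 6.93 and 5.95 at 72 hrs. The 48 hr arrays lay above both controls, and the 72 hr arrays overlapped them. The level was 7.11 ± 0.49 (SD, n = 2 arrays) at 48 hrs and 5.91 ± 0.73 (SD, n = 2) in controls, a log2 fold change of 1.20, or 2.29-fold (SE 0.48, interval from 0.09 to 2.30, unadjusted p = 0.037 and adjusted p = 1 from limma). At 72 hrs the level was 6.44 ± 0.69 (SD, n = 2) and the log2 fold change 0.53 (SE 0.48, limma adjusted p = 0.996).

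The FGFBP1 differences between arrays of the same number were 1.03 and 1.37 for replicates 1 and 2 at 48 hrs and 0.50 and 0.55 at 72 hrs. These numbers follow the titles, which the source names contradict, and do not make the arrays pairs. The replicate 1 array was above the replicate 2 array in each group, by 1.03 in controls, 0.69 at 48 hrs and 0.98 at 72 hrs. The summed intensity of 4 erythroid markers was also higher on the replicate 1 array of each group, with 1014 and 141 in controls, 474 and 244 at 48 hrs and 709 and 185 at 72 hrs. Of the 4, HBA1 and HBAD had this order in each group. HBE was higher on the replicate 2 array at 48 and 72 hrs, and SLC4A1 in controls and at 72 hrs, and both were dimmer than the median. The part of blood or of other tissue in the FGFBP1 values was not tested. Without control replicate 2, the lower of the 2 controls, its log2 fold change was 0.68 at 48 hrs and 0.01 at 72 hrs. Without 72 hr replicate 1 the 72 hr value was 0.04, and without control replicate 1 or 72 hr replicate 2 it was 1.04 or 1.02.

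**Figure D2:**
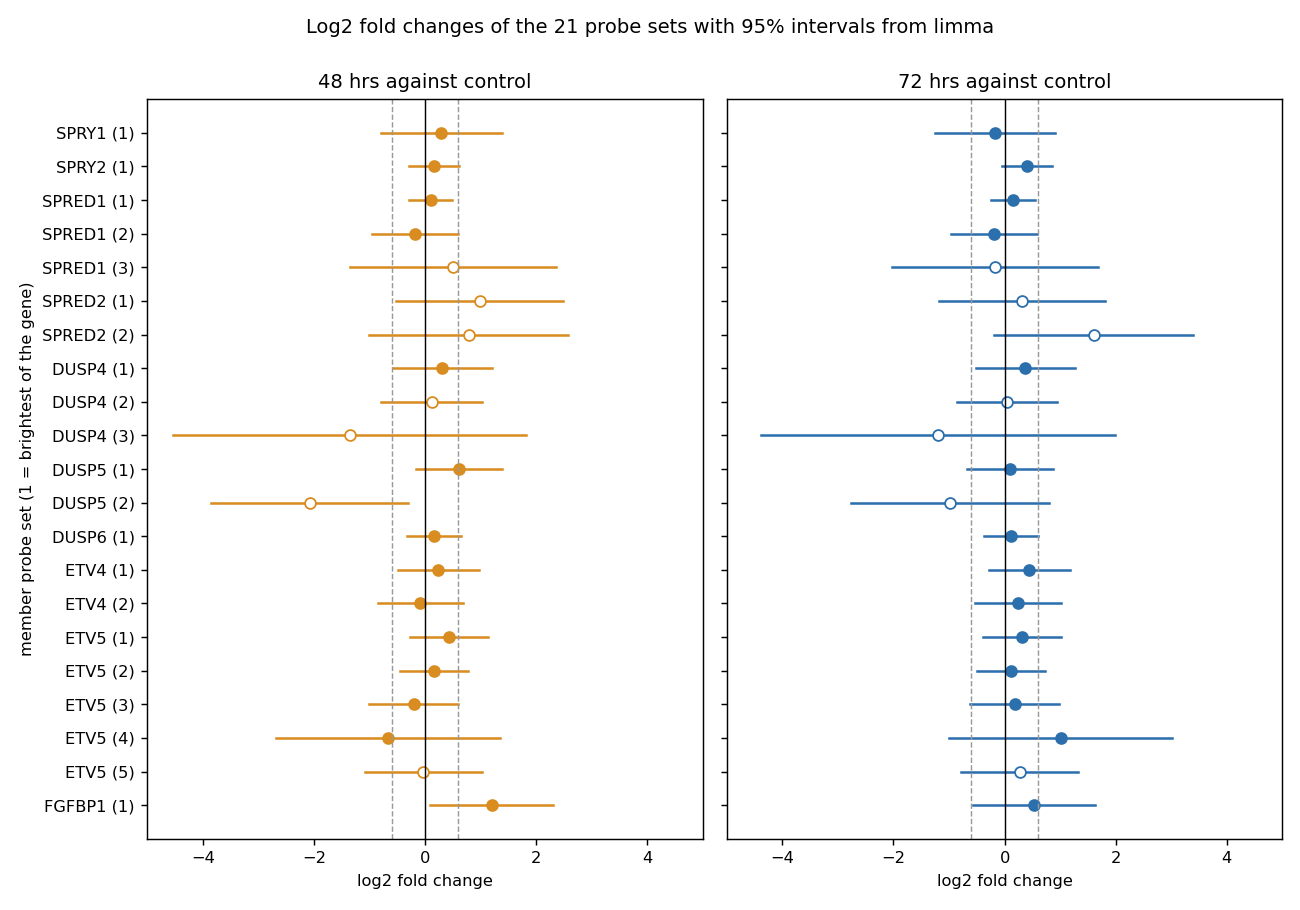
Log2 fold change (points) and 95% interval from limma (lines) of the 21 member probe sets at 48 hrs and at 72 hrs against control, numbered within a gene from the brightest; open points are dimmer than the array median and dashed lines mark the fold rule of 0.6 and -0.6. At 72 hrs 0 intervals exclude 0, and at 48 hrs those of FGFBP1 (from 0.09 to 2.30) and of the second DUSP5 probe set do.

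Between the 2 times after gentamicin no member differed by limma (72 against 48 hrs, 0.0495% of all probe sets passed and 0 of the 21 member probe sets passed; 0 had an unadjusted p under 0.05, against 3.35% of all). The brightest probe sets had log2 fold changes of 72 over 48 hrs from -0.67 for FGFBP1 and SPRED2 to 0.24 for SPRY2, with a median of -0.08. By the fold rule 0 members were above and 2 below, where 7.74% and 6.94% of genes were. DUSP5 was the 1 member whose 72 hr arrays both lay under both 48 hr arrays, by -0.52 on the means (SE 0.33, limma adjusted p = 1), as did 14.2% of genes, and for 0 members both lay above (background 14.3%). Over all 21 probe sets 3 were above and 3 below by the fold rule (backgrounds 12.2% and 10.2%), and 0 and 1 had arrays that did not overlap (backgrounds 15.4% and 13.4%).

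The spread of fold changes depended on brightness. Among probe sets with a mean log2 intensity of 4 to 5, 14.7% passed the fold rule at 48 hrs and 19.9% at 72 hrs, and under 4 it was 41.4% and 41.9%. Over 10 it was 1.04% and 2.43%. Of the 7 member probe sets past the fold rule at 48 hrs, 3 had a mean over the array median, namely those of FGFBP1 and DUSP5 above control and 1 of ETV5 below it. Among all probe sets over the median, 2.58% were above and 2.44% below control by the rule. At 72 hrs 1 member probe set over the median was above control, the same one of ETV5, and 0 were below, where 6.37% and 3.96% of all such probe sets were.

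**Figure D3:**
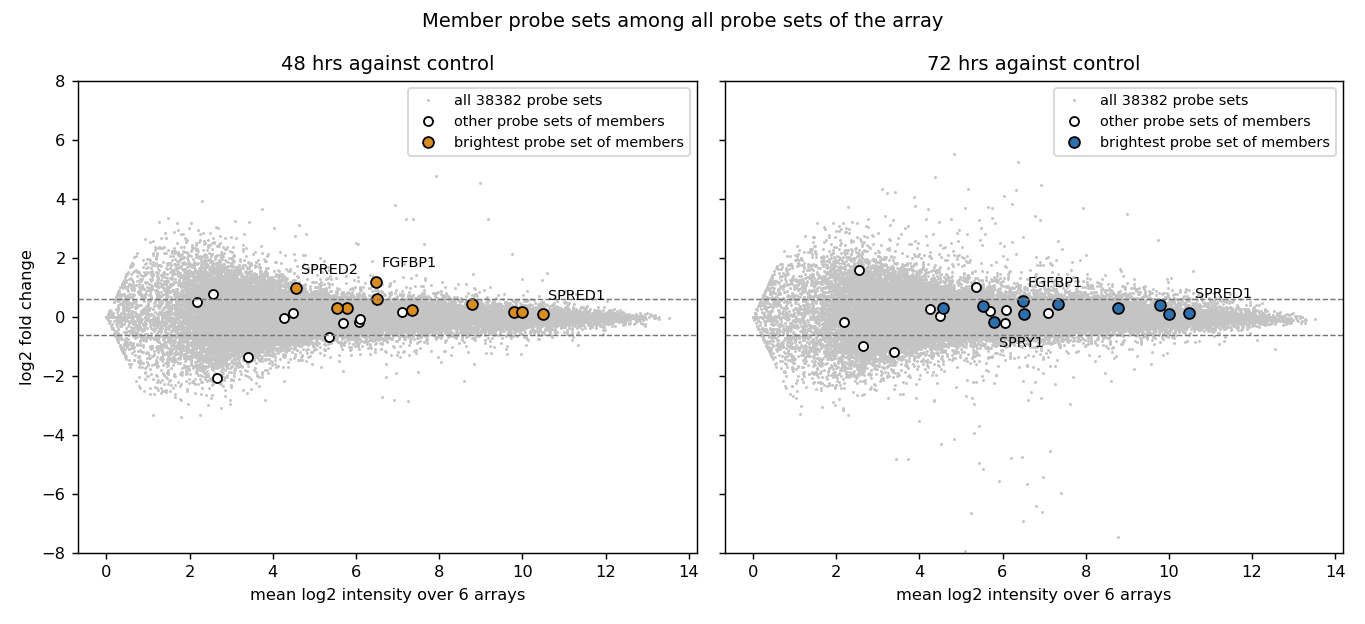
Mean log2 intensity over the 6 arrays (x axis) against log2 fold change (y axis) at 48 and 72 hrs, for all probe sets in gray, the brightest probe set of each member in color and the other member probe sets as open circles; dashed lines mark 0.6 and -0.6. The spread of all probe sets is wide on the dim side, and of the brightest member probe sets FGFBP1 (1.20 at 48 hrs) lies farthest from 0.

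Around the members, 85 of 106 genes from 7 lists of the pathway were measured, and 0 passed limma at 48 or 72 hrs (3 and 4 had an unadjusted p under 0.05). By the fold rule 7 were above and 4 below control at 48 hrs, and 7 above and 6 below at 72 hrs, where 6.82% and 5.29% of genes were at 48 hrs and 9.28% and 6.26% at 72 hrs. Their median log2 fold change was -0.04 at 48 hrs and 0.09 at 72 hrs.

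Of 18 measured FGF ligands, 8 were over the median intensity, and FGF10 at 72 hrs was the 1 of these past the fold rule. Among all probe sets over the median, 6.37% were above control by the rule at 72 hrs. FGF10, a ligand of the sensory patches of the ear, had 7.29 and 6.87 in controls, 7.71 and 6.06 at 48 hrs and 8.27 and 7.97 at 72 hrs. The 72 hr arrays lay above those of both other groups, with a log2 fold change of 1.04 against control (SE 0.49, limma adjusted p = 0.996) and 1.24 against 48 hrs (SE 0.49, unadjusted p = 0.038 and adjusted p = 1 from limma).

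FGF3, another ligand of the ear, had log2 fold changes of 0.07 at 48 hrs and -0.03 at 72 hrs, and FGF1 of -0.15 and -0.23. Of 13 receptors and coreceptors, 0 of the 8 over the median passed the fold rule at either time. FGFR3, a receptor that SCs express, had 12.45 and 12.60 in controls, 12.37 and 12.33 at 48 hrs and 12.40 and 12.64 at 72 hrs. FGFR1 had log2 fold changes of -0.08 and 0.50, and FGFR2 of 0.21 and 0.16.

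Of 9 other DUSP genes, DUSP16 was above (background 9.28%) and DUSP19 below control (background 6.26%) at 72 hrs by the fold rule. DUSP16, a phosphatase for JNK and p38, had 6.62 and 6.91 in controls, 7.08 and 7.44 at 48 hrs and 6.98 and 7.92 at 72 hrs. Its log2 fold change at 72 hrs was 0.69 (SE 0.36, limma adjusted p = 0.996). DUSP19 had 8.72 and 8.49 in controls, 7.94 and 8.15 at 48 hrs and 7.96 and 7.52 at 72 hrs, with a log2 fold change at 72 hrs of -0.87 (SE 0.25, unadjusted p = 0.0082 and adjusted p = 0.996 from limma). Both treated groups of DUSP19 lay below both controls.

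Among the other inhibitors, SPRY4, another Sprouty gene, had log2 fold changes of -0.14 and 0.09, IL17RD, the FGF antagonist SEF, of -0.18 and -0.01, and none of the 7 such genes over the median passed the fold rule. Of the ETS factors, 0 of 7 over the median passed it, and ETV1, the third PEA3 factor, had 0.29 and 0.15. In the RAS-MAP kinase cascade, RPS6KA2, an ERK-activated kinase, had -0.77 at 48 hrs (SE 0.41), and the other 12 genes over the median did not pass the rule at 48 hrs. Among all probe sets over the median, 2.44% were below control by the rule at that time. MAP2K1, the kinase that activates ERK, had -0.12 at 48 hrs and 0.14 at 72 hrs, and BRAF 0.12 and 0.03.

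Of 18 listed early genes that ERK and other signals induce, 11 were measured. Of the 11, 3 were above control at 48 hrs by the fold rule (background 6.82%) and 0 below (background 5.29%). The list was written with earlier results of these data known, so these counts are a description and not a test. The 3 were EGR1 and KLF6 and, dimmer than the median, KLF4 (0.68, SE 0.52). KLF4 had a mean log2 intensity of 3.03, and among probe sets under 4, 41.4% passed the rule at 48 hrs in either direction. At 72 hrs 1 was above (background 9.28%) and 2 were below (background 6.26%), and 0 of these were over the median intensity. EGR1, a zinc finger transcription factor, had 9.96 and 9.75 in controls, 11.18 and 11.06 at 48 hrs and 11.16 and 9.70 at 72 hrs. The 48 hr arrays and 1 of the 72 hr arrays lay above the controls, with a log2 fold change of 1.27 at 48 hrs (SE 0.41, unadjusted p = 0.015 and adjusted p = 1 from limma). KLF6 had 0.69 at 48 hrs (SE 0.20, limma adjusted p = 1). MYC, a regulator of proliferation, had -0.25 at 48 hrs and 0.16 at 72 hrs (SE 0.34 each) on its brightest probe set. The limma intervals, not adjusted for the number of probe sets, ran from -1.05 to 0.54 at 48 hrs and from -0.63 to 0.95 at 72 hrs. The paper reports a moderate up-regulation of MYC in its microarray analysis. The fold change it gives lies inside the 72 hr interval and above the 48 hr one. The paper's main text does not name the time or probe set of that value. Whether the values here differ from it was not tested.

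**Figure D4:**
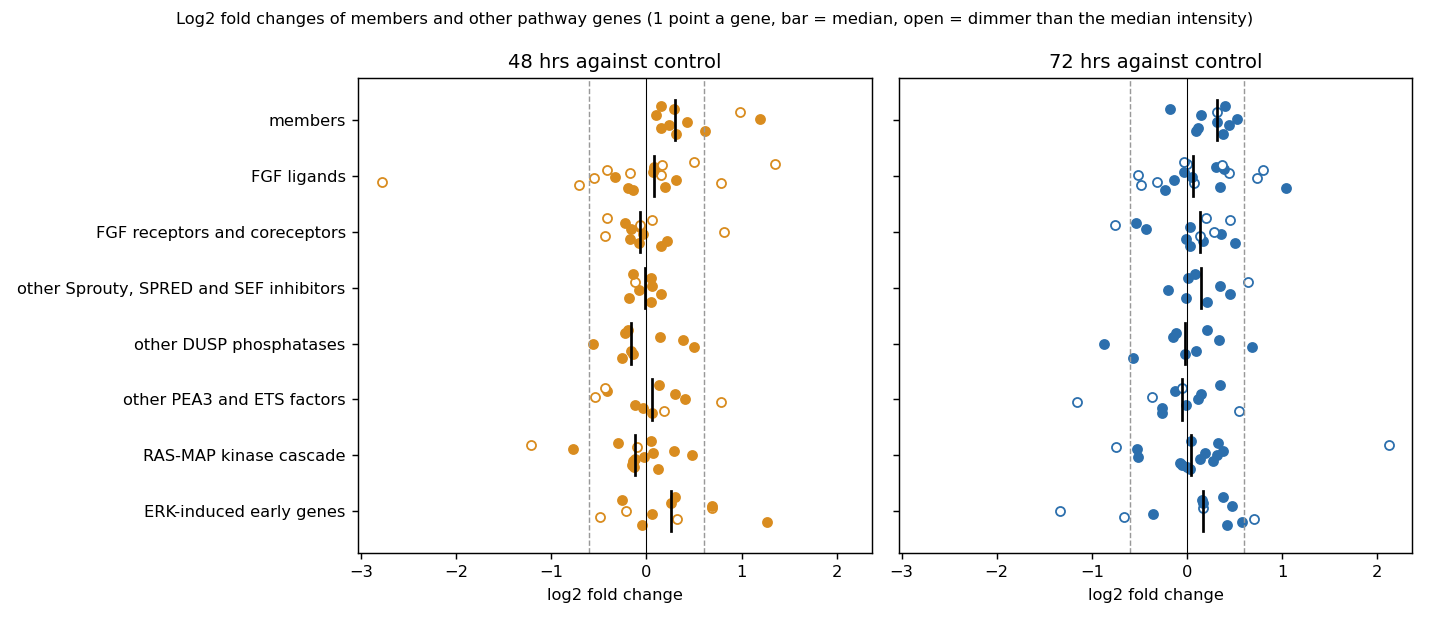
Log2 fold changes at 48 and 72 hrs against control of the 10 members and of 7 other lists of the FGF and MAP kinase pathway, 1 point a gene on its brightest probe set, with the median as a bar, open points for genes dimmer than the array median and dashed lines at 0.6 and -0.6. The medians of the members (0.30 and 0.31) lie right of 0, and those of the 7 lists lie between -0.16 and 0.25 at 48 hrs and between -0.06 and 0.17 at 72 hrs. Over all 21 member probe sets the medians were 0.16 and 0.18. Members and lists were chosen with earlier results of these data known.

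Correlations between the 10 members over the 6 arrays ranged from negative to positive. Pearson's r between the brightest probe sets of 2 members, a description over arrays that share pools and groups, ranged from -0.60 (SPRY1 with SPRY2) to 0.96 (DUSP4 with ETV4). ETV4 and ETV5 had r = 0.78, and FGFBP1 and DUSP5 had r = 0.82. Over 6 arrays, with the spread between replicates in each value, a low or negative r cannot show that members lack shared variation. The replicate 2 array was above the replicate 1 array in all 3 groups for 9 of the 21 member probe sets and below it for 2, against 22.1% and 16.7% of all probe sets. Both ETV4 probe sets and the brightest ones of DUSP4 and ETV5 were among the 9. The 3′ probe sets of GAPDH exceeded the 5′ one, a gap that widens with RNA degradation, by 2.47 and 3.31 in controls, 3.01 and 4.91 at 48 hrs and 2.08 and 4.56 at 72 hrs, so that within each group the replicate 2 array had the wider GAPDH gap. For actin this gap was 3.51 and 3.62 in controls, 3.97 and 3.93 at 48 hrs and 3.65 and 5.03 at 72 hrs, without that order at 48 hrs. By the paper's methods, RNA quality was checked on a Bioanalyzer and the labeled cRNA was made with a protocol for small samples. The part of RNA quality or of this preparation in the gaps and in the members' values was not tested.

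The genes whose profile was most like the mean of the members' centered profiles, of 9215 other genes over the median intensity, were ATIC, an enzyme of purine synthesis (r = 0.993 over 6 arrays), STAMBP (r = 0.993) and SCAF11 (r = 0.985). Such r were picked as the highest of 9215 over only 6 arrays, so they describe these arrays and do not test a link to the members. The mean member profile itself was lowest on both controls, at -0.22 and -0.25 from its center, with 0.20 and 0.23 at 48 hrs and -0.06 and 0.10 at 72 hrs. It is an unweighted mean of log2 values, so members that vary more between arrays, such as FGFBP1 and SPRED2, weigh more in it. It therefore need not be a profile that the members share.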

How the data were processed

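The deposited values are intensity values, not on a log scale, for 38535 probe sets on 6 arrays. In the authors' methods they come from dChip, whereas MAS5 stands in the notes of the submitters, and the background correction is not given in the sources used here. They were used as log2 with no further normalization, without 153 control probe sets. By the platform annotation 27178 probe sets have 1 gene symbol, 177 several and 11180 none. All 10 members matched RefSeq by Entrez identifier. The number of arrays limits the precision. The p values rest on the spread between arrays of a group, each a pool, which limma draws toward that of probe sets of like intensity.

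All 6 arrays entered 1 model per probe set in limma (version 3.58.1, R 4.3.3), with lmFit and eBayes with an intensity trend (residual df 3, prior df 4.75). The p values were adjusted over 38382 probe sets by Benjamini-Hochberg, at a threshold of 0.05. The fold rule of the methods was applied to group means. The fit was tested on simulated data with independent noise on each array. That test does not cover variation shared by arrays of the same replicate number. Tables and plots used Python 3.11.15, pandas 2.3.3, numpy 2.4.6 and matplotlib 3.10.9. Replicate numbers are those of the titles, since the source names repeat number 2 for controls and for 48 hrs. The members and lists were chosen with earlier results of these data known. Named pathway genes are mainly those, up to 4 for a list, time and direction, over the median intensity, past the fold rule and with both treated arrays beyond both controls. FGF1, FGF3, FGFR1, FGFR2, FGFR3, SPRY4, IL17RD, ETV1, MAP2K1, BRAF, MYC and KLF4 were added after their values were seen. Alternatives were other normalizations, floors of 16 and 32, a filter on dim probe sets, no trend, a replicate block, leaving out each array, single replicates, the mean of a gene's probe sets and a fold threshold of 1. Promoter sequences were not analysed here.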

Additional observations from a re-analysis of the deposited data

How the results depend on the processing

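No member probe set passed limma under any alternative, with adjusted p of the brightest probe sets between 0.977 and 1 at 48 hrs and between 0.395 and 1 at 72 hrs. With a floor of 32, 5 of all probe sets passed limma at 48 hrs and 2 at 72 hrs (main 0 and 34), with a floor of 16, 14 passed at 48 hrs and 19 at 72 hrs, and without a trend 0 passed at 72 hrs. Leaving out 1 array gave 0 to 10 of all probe sets at 72 hrs. With the replicate number as a block, 0 member probe sets passed at either time and 50 of all probe sets passed at 72 hrs. Differences between the 2 arrays of a group correlated across groups with r of 0.29 to 0.57 over 9320 probe sets, and with 2 numbers that the source names contradict they were not taken as pairs.

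Member probe sets above and below control by the fold rule (4 and 3 at 48 hrs, 2 and 2 at 72 hrs) numbered 2 and 0 at 48 hrs, then 1 and 0 at 72 hrs, with a floor of 32. A floor of 16 left 3 above and 1 below at 48 hrs and 2 above and 0 below at 72 hrs. Only probe sets over the median gave 2 and 1 at 48 hrs and 1 and 0 at 72 hrs. A threshold of 1 gave 1 above and 2 below at 48 hrs and 2 above and 1 below at 72 hrs. Equal array medians gave 3 above and 3 below at 48 hrs, since DUSP5 no longer passed, and 2 above and 2 below at 72 hrs. At 72 hrs 2 were above and 4 below on the replicate 1 arrays alone, and 6 above and 2 below on the replicate 2 arrays alone. Leaving out 1 array gave 3 to 4 above and 1 to 3 below at 48 hrs, and 2 to 7 above and 1 to 4 below at 72 hrs.

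Pathway genes past the rule (7 above and 4 below at 48 hrs, 7 and 6 at 72 hrs) numbered 2 and 1 at 48 hrs, then 2 and 2 at 72 hrs, with a floor of 32, 2 and 2 and then 3 and 3 with a floor of 16, 2 and 1 at each time over the median, and 2 and 2 at each time with a threshold of 1. Replicate 1 arrays alone gave 11 and 14 at 48 hrs and 14 below at 72 hrs, and replicate 2 arrays alone 12 and 8 at 48 hrs and 14 above at 72 hrs. Equal array medians gave 11 below at 72 hrs. Leaving out 1 array gave 7 to 13 and 4 to 10 at 48 hrs, and 7 to 17 and 6 to 11 at 72 hrs.

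The members' log2 fold changes turned sign in 9 of 159 alternative values at 48 hrs and in 14 of 159 at 72 hrs. No trend, a replicate block, the filter on dim probe sets and leaving out an array of the other treated group cannot change these values. The shares are therefore lower than among the settings that could turn a sign. Leaving out 1 array gave ranges at 48 h from -0.011 to 0.21 for SPRED1, from -0.053 to 0.67 for DUSP4, from -0.069 to 0.38 for DUSP6 and from -0.084 to 0.56 for ETV4. At 72 h it gave ranges from -0.86 to 0.51 for SPRY1, from -0.74 to 1.36 for SPRED2, from -0.27 to 0.45 for DUSP5, from -0.11 to 0.34 for DUSP6 and from -0.13 to 0.75 for ETV5. The replicate 1 arrays alone turned DUSP6 at 48 h (-0.056) and SPRY1 (0.65), SPRED2 (-0.71), DUSP5 (-0.10) and DUSP6 (-0.20) at 72 h, and the replicate 2 arrays alone turned SPRY1 at 48 h (-0.027). The mean of all probe sets turned DUSP4 (-0.31), DUSP5 (-0.73) and ETV5 (-0.062) at 48 h and SPRED1 (-0.074), DUSP4 (-0.26) and DUSP5 (-0.45) at 72 h. Equal array medians turned DUSP5 at 72 h (-0.010). The cause was not tested. Members above 0, counted under alternatives chosen after the data were seen, were 7 to 10 at 48 hrs and 6 to 9 at 72 hrs, the lowest being with the mean of all probe sets.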
